A study of Mus musculus with 18 samples.

Results

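The interleukin-1 family and its receptors were described in mouse bone marrow-derived macrophages (BMDMs) through 10 genes: the agonists Il1a, Il1b and Il18, the receptor antagonist Il1rn, the receptor Il1r1, the decoy receptor Il1r2, the accessory chains Il1rap and Il18rap, the binding protein Il18bp and the IL-33 receptor gene Il1rl1. The genes were chosen by name for their place in the pathway, and all 10 were among the 22852 gene symbols counted in the files. RNA-Seq libraries came from 18 samples, 3 biological replicates in each of 6 groups, of BMDMs from female C57BL/6 mice grown in L929 cell conditioned medium. All groups were of wild-type cells and came from the same culture protocol, and the age of the mice is not given in the sources used here.

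Unstimulated BMDMs (Unstim) received no LPS. LPS-stimulated BMDMs (LPS10Control) received a single dose of 10 ng/ml, for 3 h according to the treatment scheme of the study. LPS-primed BMDMs (LPS100) received 100 ng/ml for 24 h. LPS-tolerant BMDMs (Tol) were primed in the same way, the medium was removed, and a second dose of 10 ng/ml was given for 3 h. In the groups LPS100-Carbo25 and Tol-Carbo25, 25 µM carboplatin, a platinum compound that forms adducts with DNA, was added 1 h before priming according to the methods of the study, whereas the protocol in the sample labels names LPS before carboplatin. There was no group given carboplatin without LPS.

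IL-1α and IL-1β signal through IL-1R1 paired with the accessory chain encoded by Il1rap, which leads through MyD88 and IRAK kinases to NF-κB. The antagonist encoded by Il1rn occupies IL-1R1 without signalling, and the decoy encoded by Il1r2 binds IL-1 but lacks a signalling domain. IL-1β and IL-18 are made as precursors that caspase-1 cleaves in inflammasomes, so that mRNA and released cytokine are separate levels of control. IL-18 is neutralized by the protein of Il18bp, and Il18rap encodes the signalling chain of its receptor. In macrophages, LPS is a classical inducer of the IL-1 genes, and endotoxin tolerance is the weaker response of such cells to a second dose.

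The gene counts of a library summed to between 6869667 and 14708099 (median 8986463). The libraries carried macrophage RNA: the summed level of 10 macrophage markers lay between 151703 and 309662 normalized counts (counts set to a common library size after TMM scaling). The neutrophil markers Ly6g, Mpo, Retnlg and Cxcr2 and the T cell markers Cd3e, Cd3d, Cd3g and Cd8a had 0 counts in all 18 samples. Among the other neutrophil markers, S100a8 reached 414 counts and Camp 14, while Elane, Prtn3, Ngp, Ltf and S100a9 had at most 8. Of 5 endothelial markers, Kdr reached 141 counts and Cdh5 197, with Cdh5 means of 2.62 normalized counts without LPS and 120 after the single dose. Of 8 mast cell and basophil markers, 6 had 0 counts in all samples, while Kit reached 42 counts. In bulk RNA, fewer cells of a type and less RNA per cell cannot be told apart. The 18 samples entered a single edgeR quasi-likelihood fit of 11305 genes that passed the expression filter, and a gene passed the test at a Benjamini-Hochberg adjusted p under 0.05. Of the 10 genes described here, 8 were tested in this fit, and the filter removed Il1r2 and Il1rl1.

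On chromosome 1 of GRCm39 (GENCODE vM39), Il1r2, Il1r1, Il1rl1 and Il18rap fall in a stretch of 477.6 kb that holds 6 protein-coding genes, the others being Il1rl2 and Il18r1. Il1a (chr2:129140291-129152098) and Il1b (chr2:129206490-129213059) lie on the minus strand of chromosome 2, separated by 54.4 kb, and Il1rn (chr2:24226865-24241506) is on the plus strand of the same chromosome. The genes Il18 (chr9:50466081-50493633), Il1rap (chr16:26400350-26548880) and Il18bp (chr7:101638490-101668206) stand apart. On the same strand, Il1r1 overlaps the gene Gm38070, Il1r2 overlaps Gm37347 and Il1rap overlaps Gm60483. Long noncoding RNA genes on the opposite strand overlap Il1a (Gm14023), Il1b (Il1bos and Gm14023), Il1r2 (Gm16894) and Il1rap (Gm20319). Also on the opposite strand, Il18 overlaps Tex12 and Bco2, and 25899 bases of Il18bp overlap Numa1. The strand option of the counting is not given in the sources used here, so reads from such pairs cannot be told apart.

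The promoters of Il1a, Il1b and Il1rn are shown because these genes had the largest changes after the single dose of LPS. Each line gives the 250 bases before a RefSeq start site, placed on GRCm39 by an exact match, 5′ to 3′ on the strand of the gene, with capitals marking matches to the NF-κB letters (3 G, any 5 bases and 2 C), the AP-1 letters TGANTCA and the TATA letters TATAAA, searched on both strands.
Il1a, chr2:129151893-129152142, minus strand: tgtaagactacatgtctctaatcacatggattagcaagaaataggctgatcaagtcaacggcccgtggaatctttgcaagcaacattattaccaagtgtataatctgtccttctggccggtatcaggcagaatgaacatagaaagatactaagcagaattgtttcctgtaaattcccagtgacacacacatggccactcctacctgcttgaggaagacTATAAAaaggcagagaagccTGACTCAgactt
Il1b, chr2:129213060-129213309, minus strand: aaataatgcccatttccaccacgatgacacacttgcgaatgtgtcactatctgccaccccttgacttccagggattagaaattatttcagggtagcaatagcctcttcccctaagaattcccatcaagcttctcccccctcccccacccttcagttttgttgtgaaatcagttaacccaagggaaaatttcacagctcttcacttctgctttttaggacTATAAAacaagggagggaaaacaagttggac
Il1rn, upstream start, chr2:24226622-24226871, plus strand: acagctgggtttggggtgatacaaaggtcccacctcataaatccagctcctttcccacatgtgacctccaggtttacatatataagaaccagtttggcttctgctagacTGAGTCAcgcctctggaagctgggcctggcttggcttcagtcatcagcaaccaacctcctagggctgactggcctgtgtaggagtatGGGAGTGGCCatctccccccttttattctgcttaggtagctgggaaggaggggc
Il1rn, downstream start, chr2:24235133-24235382, plus strand: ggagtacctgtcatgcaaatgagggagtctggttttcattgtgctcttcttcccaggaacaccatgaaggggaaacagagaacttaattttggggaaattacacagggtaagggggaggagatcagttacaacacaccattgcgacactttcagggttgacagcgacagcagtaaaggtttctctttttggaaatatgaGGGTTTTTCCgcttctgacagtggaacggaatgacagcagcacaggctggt
TATAAA stood at positions -32 to -27 of Il1a and -31 to -26 of Il1b, and 12.4% of 32851 mouse promoter windows of this length hold these letters on either strand. The AP-1 letters were found at positions -12 to -6 of Il1a and -141 to -135 of the upstream Il1rn start (6.7% of windows). The NF-κB letters, which 45.8% of windows hold, were found at -54 to -45 and -51 to -42 of the printed Il1rn starts. They were not found in the windows of Il1a and Il1b. Another RefSeq start of Il1rn, with the window chr2:24235053-24235302 that is not printed, held none of the NF-κB, AP-1 or TATA letters. A match is a string of letters only, and its absence says nothing of a site elsewhere. Gene-level counts do not separate the starts of Il1rn.

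A single dose of LPS for 3 h raised Il1a, Il1b, the antagonist Il1rn and the receptor Il1r1 from low levels in unstimulated BMDMs. This comparison measures the first response to LPS. Il1b was found at 47.8, 45.1 and 59.1 normalized counts in replicates 1 to 3 of the unstimulated group, and at 63047, 48830 and 65005 in the LPS-stimulated group. All LPS-stimulated samples were far above all unstimulated ones, with a log2FC of 10.18 (SE 1.26, edgeR adjusted p = 4.69e-06). Il1a had 10.5, 2.46 and 8.18 normalized counts without LPS, which are 3 to 11 reads per sample. With LPS it had 12700.0, 15128 and 15828, a log2FC of 11.02 (SE 1.1, edgeR adjusted p = 4.13e-07).

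Il1rn, whose product competes with both agonists for IL-1R1, rose from 142.4, 50.8 and 60.9 to 10222, 15358 and 14884 normalized counts (log2FC 7.32, SE 0.64, edgeR adjusted p = 9.42e-08). The receptor gene Il1r1 (chr1:40264174-40356417) had 1 to 6 reads in each unstimulated sample. After LPS it was at 50.1, 175.0 and 130.1 normalized counts, which put all LPS-stimulated samples above the unstimulated ones (log2FC 5.14, SE 0.54, edgeR adjusted p = 7.69e-07). In this comparison, 4 of the 8 tested members passed the test, all upward, beside 51.2% of all tested genes in either direction and 24.3% upward. The median log2FC of all tested genes was -0.09. Scaled by library size alone, the median was -0.43, and 1847 genes were called higher and 4636 lower in place of 2749 and 3040, while the same 4 members were higher by more than this shift. The count of members depends on the filter, which Il1a and Il1r1, few in unstimulated BMDMs, passed through the groups given LPS. Requiring at least 10 counts in every sample compared removed both, and 2 of 6 tested members passed, beside 5075 of 9865 genes.

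The other tested members did not pass at 3 h. Il18 was at 101 ± 25.2 (mean ± SD, n = 3 in each group) normalized counts without LPS and 77.3 ± 14.8 with it. Il1rap, the shared accessory chain, was at 58.6 ± 31.2 and 87.8 ± 30.4, and Il18bp at 48.7 ± 19.9 and 52.3 ± 8.16. Il18rap was at 85.9, 65.0 and 53.2 normalized counts in LPS-stimulated samples and at 23.9, 36.9 and 43.6 in unstimulated ones. Its log2FC of 0.96 (SE 0.45) did not pass the test (edgeR adjusted p = 0.082). With the replicate number as a block, Il18rap passed (log2FC 0.96, adjusted p = 0.0343), and so did Il1rap (log2FC 0.63, adjusted p = 0.0338), beside 63.2% of all genes in that fit.

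**Figure D1:**
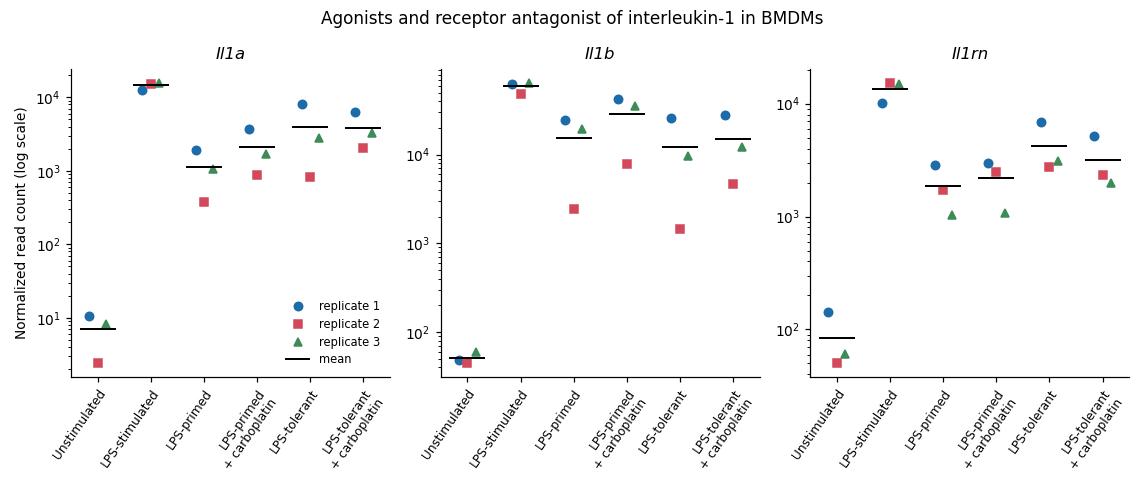
Normalized read counts of Il1a, Il1b and Il1rn (y axes, log scale) in each sample of the 6 groups (x axes), with symbols for the replicate number and lines for group means. The LPS-stimulated samples lie above all others for each gene, and replicate 2 is the lowest sample of Il1a and Il1b in all 4 groups given 100 ng/ml.

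After 24 h of priming with 100 ng/ml, Il1a, Il1b, Il1rn and Il1r1 stood above their unstimulated levels, and Il18bp had risen as well. The unstimulated samples are shared with the comparison before. Il1b was at 24419, 2439 and 19224 normalized counts in LPS-primed samples, and Il1a at 1914, 374.9 and 1047. These samples did not overlap with the unstimulated ones (log2FC 8.24, SE 1.18 for Il1b and 7.31, SE 1.0 for Il1a, edgeR adjusted p = 5.23e-05 and 3.46e-05). Within the LPS-primed group, replicate 2 was far below the others for both genes. The log2FC of Il1rn was 4.47 (SE 0.57, edgeR adjusted p = 1.66e-05).

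Il1r1 had its highest levels in LPS-primed BMDMs, without carboplatin at 269.9, 217.6 and 238.2 normalized counts and with it at 364.6, 221.8 and 264.7. Its log2FC against unstimulated BMDMs was 6.15 (SE 0.54, edgeR adjusted p = 2.49e-07). Stromal cells also carry Il1r1, and the summed level of 8 fibroblast and stroma markers was 0.819 to 8.18 normalized counts in unstimulated, 22.7 to 51.3 in LPS-stimulated and 40.2 to 81.6 in LPS-primed samples. Most of the LPS-stimulated and LPS-primed sums came from Dcn, with means of 0.303, 6.58 and 45.5 normalized counts in these groups, and Pdgfrb, with 1.82, 22.6 and 8.74. Col1a1, Col1a2, Col3a1, Lum, Pdgfra and Cxcl12 had at most 6 counts in any sample, and the part of such cells in the level of Il1r1 was not tested. Il18bp rose from 67.9, 50 and 28.2 to 176.8, 371.4 and 163.2 normalized counts (log2FC 2.28, SE 0.41, edgeR adjusted p = 0.000462). In all, 5 of 8 tested members passed, all upward, beside 25.2% of all tested genes in either direction and 12.1% upward. With library size alone, the median of all genes moved from -0.02 to -0.26, with 932 genes higher and 2598 lower in place of 1370 and 1477. Il18, Il1rap and Il18rap did not pass, with log2FC of -0.02 (SE 0.3), 0.53 (SE 0.41) and -0.66 (SE 0.47). Here too, Il1a and Il1r1 passed the filter through the groups given LPS. Requiring at least 10 counts in every sample compared removed Il1a and Il1r1, and 3 of 6 tested members passed, beside 2395 of 9979 genes.

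Compared with the LPS-stimulated group, in which both dose and time differed, LPS-primed BMDMs had less Il1a, Il1rn and Il18rap and more Il1r1 and Il18bp. The log2FC was -3.71 (SE 0.75) for Il1a, -2.85 (SE 0.52) for Il1rn and -1.62 (SE 0.46) for Il18rap (edgeR adjusted p = 0.000687, 0.000269 and 0.00921). For Il18bp it was 2.17 (SE 0.4) and for Il1r1 1.01 (SE 0.37), with edgeR adjusted p of 0.000364 and 0.0351. These 5 of 8 members, 3 downward and 2 upward, stood beside 44.6% of all tested genes, 22.6% downward and 22.0% upward. For Il1b, the log2FC of -1.94 (SE 0.87) missed the threshold (edgeR adjusted p = 0.0797). Il1b passed by limma-voom (adjusted p = 0.0381) and in an edgeR fit of only these groups (adjusted p = 0.035). With the replicate number as a block, Il1b also passed in edgeR (log2FC -2.61, SE 0.52, adjusted p = 0.000393), beside 6482 of 11305 genes. Replicate 3 of these groups did not pair by number (r 0.063), which limits the blocked value. The call of Il1r1 was lost without replicate 1 or 3 of either group (edgeR adjusted p between 0.0637 and 0.117).

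LPS-tolerant and LPS-stimulated BMDMs received the same dose of 10 ng/ml for 3 h, and only the former were primed. This is the comparison the study made for LPS-tolerant BMDMs. It sets end levels side by side and does not separate the response to the second dose from levels already raised by priming. Il1a, the antagonist Il1rn and Il18rap were lower in tolerant cells, while Il18bp was higher. Il1a was at 8051, 828.3 and 2771 normalized counts in the LPS-tolerant samples, and none reached the lowest LPS-stimulated sample at 12700.0. Its log2FC was -1.91 (SE 0.69, edgeR adjusted p = 0.041). Il1b, at 25575, 1445 and 9595 normalized counts, was lower than in every LPS-stimulated sample as well. Its log2FC of -2.27 (SE 0.88) did not pass in the fit without a block (edgeR adjusted p = 0.0551) and passed with the replicate number as a block (log2FC -3.09, SE 0.54, adjusted p = 0.000131, beside 47.6% of all genes in that fit).

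Il1rn was at 6886, 2721 and 3120 normalized counts in LPS-tolerant samples, with a log2FC of -1.67 (SE 0.49, edgeR adjusted p = 0.014). Il18rap fell from 68.1 ± 16.5 to 19.8 ± 11.7 (log2FC -1.78, SE 0.47, edgeR adjusted p = 0.00697). Il18bp was higher in all tolerant samples, at 98.8, 234.9 and 118.4 against 48.9, 61.6 and 46.3 normalized counts (log2FC 1.53, SE 0.4, edgeR adjusted p = 0.00692). Thus 4 of 8 tested members passed, 3 downward and 1 upward, beside 34.5% of all tested genes, 18.3% downward and 16.2% upward. For Il1r1, at 112 ± 51.0 and 118 ± 63.3, the samples of both groups overlapped (log2FC -0.11, SE 0.38). This comparison and the one before share the LPS-stimulated samples.

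Single libraries decided some of these calls. Without replicate 2 of the LPS-tolerant group, Il1a (log2FC -1.43, edgeR adjusted p = 0.118), Il1rn (-1.43, 0.0622) and Il18bp (1.05, 0.0586) did not pass. Without replicate 3 of that group, Il1a (-1.71, 0.13) and Il1rn (-1.49, 0.0627) did not, and the call of Il1a was also lost without any one of the LPS-stimulated samples (edgeR adjusted p between 0.0528 and 0.0839). Without LPS-tolerant replicate 1, the highest of its group, Il1b passed (log2FC -3.42, edgeR adjusted p = 0.0168).

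**Figure D2:**
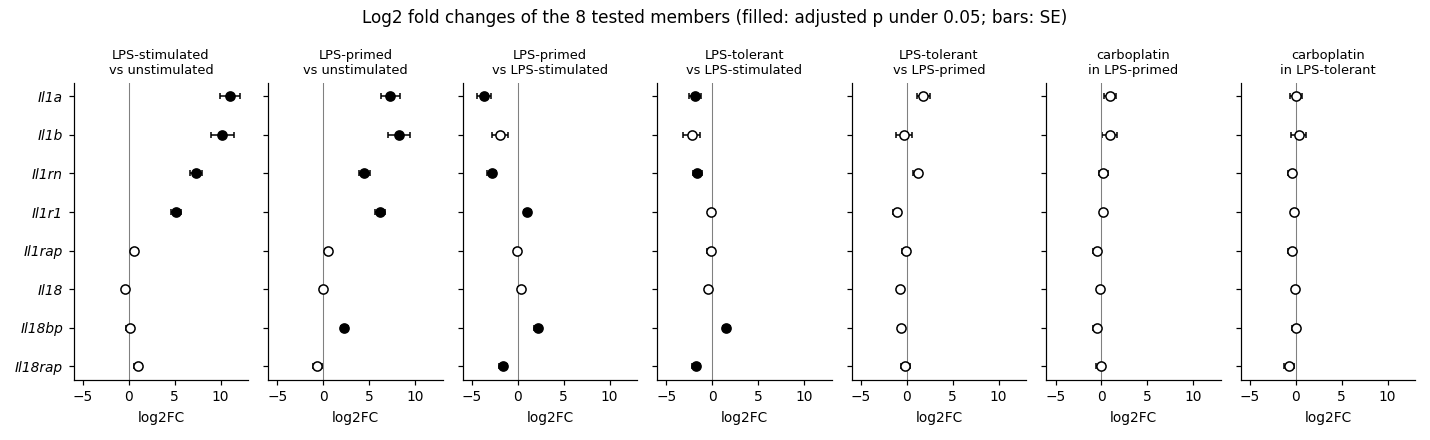
Log2FC with SE (x axes) of the 8 tested members (y axis) in 7 comparisons, from the edgeR fit of all 18 samples, with filled points for an adjusted p under 0.05. Filled points lie in the 4 comparisons on the left, and none in LPS-tolerant against LPS-primed BMDMs or in either carboplatin comparison.

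The second dose was also measured against the primed state before it. The log2FC of Il1a was 1.8 (SE 0.69, edgeR adjusted p = 0.139) and that of Il1rn 1.18 (SE 0.49, adjusted p = 0.169). For Il1b it was -0.33 (SE 0.84, edgeR adjusted p = 0.877). Il1r1 was at 169.7, 74.3 and 90.6 normalized counts in LPS-tolerant samples (log2FC -1.13, SE 0.38, edgeR adjusted p = 0.0864). None of the 8 members passed in the edgeR fit, beside 6.31% of all tested genes; 4 had an unadjusted p under 0.05, as did 21.1% of all genes, and DESeq2 and limma-voom called 1 each, Il1r1, where DESeq2 called 1127 of 11084 genes. With the replicate block, 3 members passed, beside 18% of all genes: Il1a (log2FC 1.63, adjusted p = 0.0067), Il1rn (1.19, 0.0133) and Il1r1 (-1.16, 0.0275). Without LPS-tolerant replicate 1, Il1r1 also passed in the fit without a block (log2FC -1.55, edgeR adjusted p = 0.0383).

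The response to the second dose and that to the first were compared directly, as the change from LPS-primed to LPS-tolerant minus the change from unstimulated to LPS-stimulated. The difference was -9.22 (SE 1.22) for Il1a, -10.51 (SE 1.45) for Il1b, -6.14 (SE 0.75) for Il1rn and -6.27 (SE 0.67) for Il1r1, on the log2 scale. All 4 passed the test (edgeR adjusted p = 2.93e-05, 4.29e-05, 1.27e-05 and 2.86e-06), beside 23.8% of all tested genes and 13.3% downward. Il1a and Il1r1, few in unstimulated BMDMs, passed the filter through the groups given LPS. With at least 10 counts in every sample compared, 2 of 6 tested members passed, beside 2368 of 9493 genes. The starting levels differed between the responses: Il1b, for example, stood at 50.6 ± 7.42 normalized counts before the first dose and at 15361 ± 11488 before the second.

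Across the 6 groups, the order of the mean levels was not the same for the agonists. Il1a was ordered as LPS-stimulated (14552), LPS-tolerant (3883), LPS-tolerant with carboplatin (3870), LPS-primed with carboplatin (2115), LPS-primed (1112) and unstimulated (7.05 normalized counts). For Il1b, LPS-stimulated BMDMs (58961) were followed by LPS-primed with carboplatin (28685), LPS-primed (15361), LPS-tolerant with carboplatin (15032), LPS-tolerant (12205) and unstimulated (50.6). For both genes, the first and the last group did not overlap with their neighbours, and the 4 groups between them overlapped with one another in sequence. Il1rn had the order of Il1a, from 13488 in LPS-stimulated to 84.7 in unstimulated BMDMs.

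Ratios within a sample compare the members without the scaling of libraries, here as counts per kb of exon. The ratio of Il1b to Il1rn, agonist to antagonist, was 0.714, 1.89 and 2.06 in unstimulated and 13.1, 6.77 and 9.3 in LPS-stimulated samples. LPS-primed samples had ratios of 18.3, 3.02 and 39.3, and LPS-tolerant samples 7.91, 1.13 and 6.55. Replicate 2 had the lowest ratio in each group given LPS, and the LPS-tolerant group overlapped with the unstimulated, the LPS-stimulated and the LPS-primed groups. The ratio of Il1a to Il1b was 0.0585, 0.115 and 0.0406 in LPS-primed and 0.235, 0.428 and 0.215 in LPS-tolerant samples. Here the LPS-primed group lay below both the LPS-tolerant and the LPS-stimulated group (0.15, 0.231 and 0.182) without overlap, and no test of the ratios was made.

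**Figure D3:**
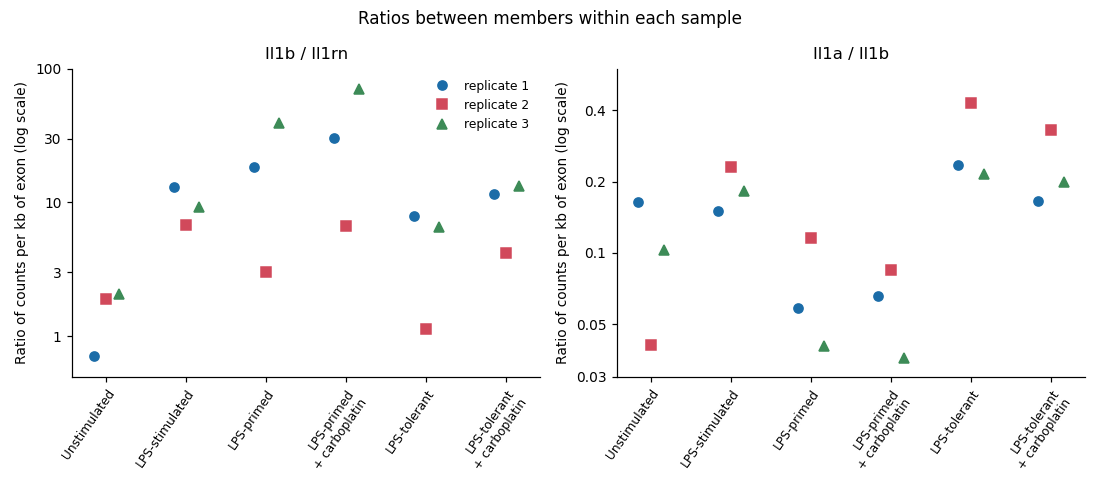
Ratios of counts per kb of exon (y axes, log scale) within each sample, for Il1b over Il1rn and Il1a over Il1b, in the 6 groups (x axes), with symbols for the replicate number. Il1b over Il1rn spans 3.02 to 39.3 in LPS-primed BMDMs, and Il1a over Il1b is between 0.0406 and 0.115 there and between 0.215 and 0.428 in LPS-tolerant BMDMs.

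The decoy receptor gene Il1r2 (chr1:40113239-40164391) was detected above the floor of 3 counts per library only after the single dose of LPS. Its raw counts were 53, 10 and 21 in LPS-stimulated samples. They were 1, 1 and 0 in unstimulated, 0, 0 and 0 in LPS-primed and 2, 2 and 1 in LPS-tolerant samples. LPS-stimulated BMDMs thus had at least 9.66-fold more Il1r2 than LPS-primed BMDMs, against a floor of 3 counts per library. The ratio of counts per library size was 42.9 against unstimulated (exact 95% interval 11.5 to 360) and 14.9 against LPS-tolerant BMDMs (6.13 to 47), intervals that cover counting error only. Without the expression filter, edgeR gave Il1r2 an adjusted p of 0.000224 against unstimulated, 9.37e-05 against LPS-primed and 0.00213 against LPS-tolerant BMDMs, in fits that called 36.5%, 31.4% and 23.9% of 15486 genes. In normalized counts the LPS-stimulated replicates ranged from 6.92 to 63.2. Neutrophils also carry Il1r2, and the summed level of 11 neutrophil markers was 8.18 to 15.6 normalized counts in unstimulated, 40.8 to 120 in LPS-stimulated, 84.3 to 438 in LPS-primed and 140 to 541 in LPS-tolerant samples. Most of this was S100a8, the other 10 markers having at most 14 counts in any sample, and the part of such cells in Il1r2 was not tested.

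Il1rl1 (chr1:40468730-40504575), the receptor of IL-33, stayed at 0 to 3 counts in 17 of the 18 samples and reached 5 counts in LPS-stimulated replicate 1. No fold is given. Mast cells and basophils are known for this receptor, and the summed level of their 8 markers was 10.7 to 40.1 normalized counts in unstimulated, 10.8 to 18.7 in LPS-stimulated, 0 to 0.938 in LPS-primed and 6.05 to 10.1 in LPS-tolerant samples. Kit carried most of this sum in the first 2 groups, with means of 21.8 and 9.79 normalized counts against less than 1 in the others, and Gata2 reached 10 counts, while Cpa3, Mcpt8, Ms4a2, Fcer1a, Cma1 and Tpsb2 had 0 counts in all samples. The part of such cells in the counts of Il1rl1 was not tested.

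**Figure D4:**
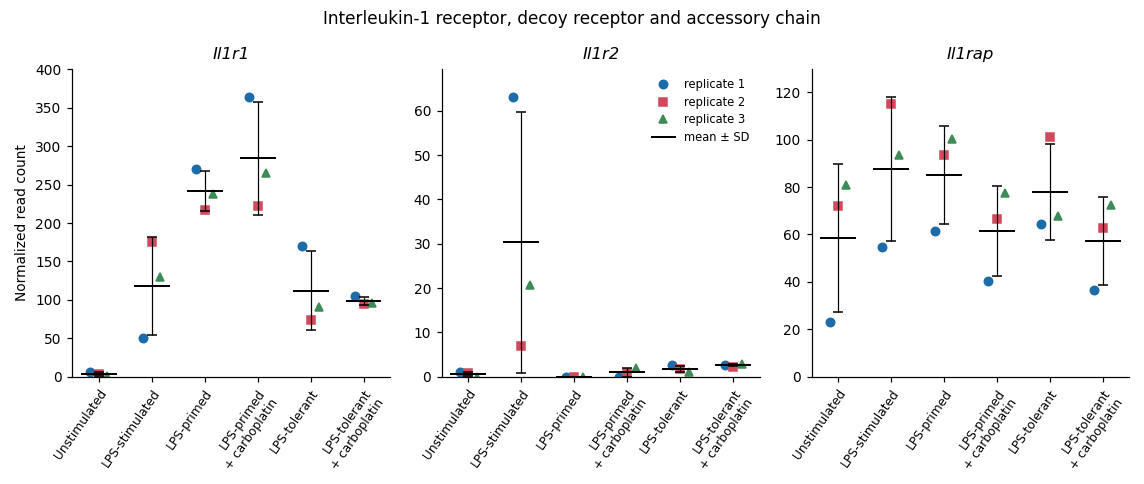
Normalized read counts of Il1r1, Il1r2 and Il1rap (y axes) in each sample of the 6 groups (x axes), with lines and bars for mean ± SD. Il1r1 is highest in both LPS-primed groups, Il1r2 is highest in the LPS-stimulated samples at 6.92 to 63.2 normalized counts, and Il1rap overlaps between all groups.

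Il1rap stayed between 22.9 and 114.9 normalized counts in all 18 samples, and its 6 group means lay between 57.3 and 87.8. Replicate 1 was its lowest sample in each of the 6 groups. In no LPS comparison did it pass without the block.

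Among the IL-18 genes, the cytokine itself did not pass any test, whereas its binding protein and the receptor accessory chain did. Il18 was at 91.7, 81.1 and 129.0 normalized counts in unstimulated and at 60.8, 61.3 and 48.4 in LPS-tolerant samples. It was lower in each LPS-tolerant than in each LPS-stimulated sample (91.9, 62.3 and 77.9), with a log2FC of -0.44 (SE 0.31, edgeR adjusted p = 0.303), and groups that do not overlap were found for 44.2% of all tested genes in that comparison. Mean Il18bp was 237 normalized counts in LPS-primed and 151 in LPS-tolerant BMDMs, and 168 and 150 in these states with carboplatin. It was 52.3 in LPS-stimulated and 48.7 in unstimulated BMDMs. The ratio of Il18bp to Il18 per kb of exon was 0.132 to 0.448 in unstimulated, 0.323 to 0.599 in LPS-stimulated and 0.68 to 3.73 in LPS-primed samples.

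Il18rap was highest after the single dose of LPS and lower than that in every group given 100 ng/ml. Its group means were 68.1 in LPS-stimulated, 34.8 in unstimulated, 21.9 in LPS-primed and 19.8 in LPS-tolerant BMDMs. These are small counts, from 4 to 94 reads per sample. The gene of the partner chain, Il18r1, had 0 counts in 17 samples and 2 in the other. NK and T cells also carry Il18rap, and of their 8 markers 7 had 0 counts in all samples, while Klrb1c had at most 3.

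**Figure D5:**
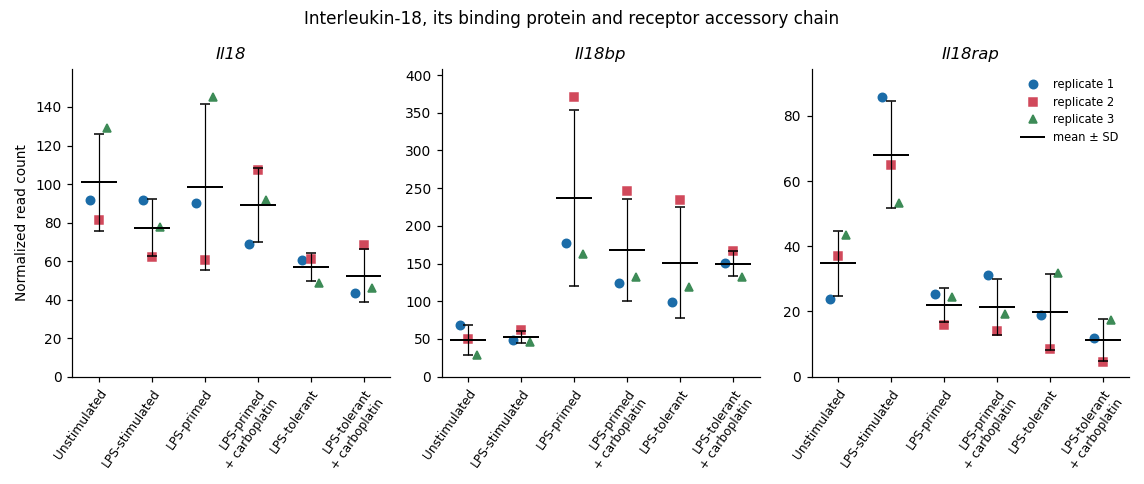
Normalized read counts of Il18, Il18bp and Il18rap (y axes) in each sample of the 6 groups (x axes), with lines and bars for mean ± SD. Mean Il18bp is higher in the groups given 100 ng/ml of LPS than in the others, and mean Il18rap is highest in the LPS-stimulated group.

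Carboplatin was compared with its absence in LPS-primed and in LPS-tolerant BMDMs. In the primed state, Il1b was higher with carboplatin in all 3 same-numbered pairs, at 42669, 7788 and 35599 against 24419, 2439 and 19224 normalized counts. With and without carboplatin, the samples overlapped, and the log2FC of 0.9 (SE 0.85) did not pass (edgeR adjusted p = 0.955). Il1a behaved in the same way, at 3745, 882.6 and 1717 against 1914, 374.9 and 1047 (log2FC 0.93, SE 0.68, edgeR adjusted p = 0.919). A gene was higher in all 3 pairs for 21.2% of all tested genes. Il1rn, the antagonist, was also higher in all 3 pairs (log2FC 0.22, SE 0.48), as was Il1r1 (0.23, SE 0.36). Il1rap and Il18bp were lower in all 3 pairs (log2FC -0.46, SE 0.41 and -0.49, SE 0.38), a pattern whose share of all genes is not given here.

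In LPS-tolerant BMDMs, Il1b was at 28240, 4651 and 12206 normalized counts with carboplatin and 25575, 1445 and 9595 without it. This was higher in 3 of 3 pairs, as for 21.9% of all tested genes, with a log2FC of 0.3 (SE 0.84, edgeR adjusted p = 1.0). Mean Il1a was 3870 ± 2186 with and 3883 ± 3738 without carboplatin. Il1rn and Il18rap were lower with carboplatin in 3 of 3 pairs, as were 22.0% of all tested genes, with log2FC of -0.42 (SE 0.48) and -0.77 (SE 0.52).

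No member passed for carboplatin in either state, by edgeR with or without the block, DESeq2 or limma-voom, beside 0.372% of all tested genes in the primed and 0.425% in the tolerant state. At an unadjusted p under 0.05, edgeR had 0 members in each state, beside 6.86% of all genes in the primed and 6.73% in the tolerant state. In the edgeR fit with the block, the unadjusted p in the primed state was 0.0213 for Il1a and 0.0471 for Il1b (adjusted p = 0.258 and 0.356). The share of all genes at that unadjusted limit is not given here for the block. After adjustment the block called 200 genes in this state in place of 42. The members ranged in log2FC from -0.49 to 0.93 in the primed and from -0.77 to 0.3 in the tolerant state. The difference between the effects of carboplatin in the 2 states was tested directly, and none of the 8 members and none of the 11305 genes passed by edgeR, with 0 members at an unadjusted p under 0.05 and 0 members past the adjusted limit by DESeq2 and limma-voom. That difference was -0.93 (SE 0.95) for Il1a and -0.6 (SE 1.19) for Il1b.

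Il1a and Il1b varied with the replicate number. In the 4 groups given 100 ng/ml, replicate 2 was the lowest sample of both genes every time, at 0.0822 to 0.23 times the mean of the other 2 samples for Il1b and 0.153 to 0.43 times for Il1a. In LPS-stimulated BMDMs it was at 0.763 and 1.06 times. Replicate 1 was the highest sample of Il1a, Il1b, Il1rn and Il1r1 in all 4 groups. Replicate 2 was also the lowest sample of Il1r1 and Il18rap in all 4. Il18bp went the other way, with replicate 2 highest in all 4, and Il1rap had replicate 1 lowest in all 4. Of all tested genes, 7.63% had replicate 2 as the lowest sample and 14.3% had replicate 1 as the highest in all 4 groups. The shares were 7.2% for replicate 2 as the highest and 17.2% for replicate 1 as the lowest. Deviations from the group means correlated between same-numbered samples across genes, with a mean r of 0.35 over 45 pairs of samples. What the number stands for is not given in the sources used here.

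Other genes of the family were counted from a list of 11 genes, of which 10 were found in the files and 5 were tested. In LPS-stimulated against unstimulated BMDMs, 4 rose and 1 fell, but Il33, Il36a and Il36g were at or near 0 without LPS and passed the expression filter only through groups in which they were high, so that this count is no measure of the list. The alarmin gene Il33 had 76, 270 and 286 raw counts with LPS and 0 in every unstimulated sample, so that it was at least 69.5-fold higher. In this comparison the stromal marker sums given with Il1r1 moved in the same direction. They were 40.2 to 81.6 normalized counts in LPS-primed samples, where Il33 had 21, 0 and 3 raw counts, and 50.7 to 88.5 in LPS-tolerant samples. The part of such cells in Il33 was not tested. The raw counts of Il33 were 7, 0 and 5 in LPS-tolerant samples (log2FC -5.4 against LPS-stimulated BMDMs, SE 1.09, edgeR adjusted p = 0.0013). Il36a, listed under its older symbol Il1f6, was at 0 in every unstimulated sample and at least 3.78-fold higher with LPS. The inhibitory receptor gene Sigirr fell, from 51.7 to 8.66 mean normalized counts (log2FC -2.64, SE 0.65, edgeR adjusted p = 0.00295).

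Genes for the processing and release of the cytokines were counted from a list of 20, all tested. After the single dose, 9 rose and 7 fell (median log2FC -0.06), where 24.3% of all tested genes rose and 51.2% passed in either direction (median -0.09). The inflammasome sensor genes Nlrp3 and Mefv, the latter encoding pyrin, rose by a log2FC of 4.24 (SE 0.19) and 4.06 (SE 0.47), with edgeR adjusted p of 3.31e-11 and 2.21e-06. Txnip and P2rx7, the gene of an ATP-gated channel, fell with log2FC of -2.39 (SE 0.32) and -2.37 (SE 0.26), with edgeR adjusted p of 9.5e-06 and 1.42e-06. In LPS-tolerant against LPS-stimulated BMDMs, 5 of the 20 genes were higher and 6 lower (median 0.01), beside 34.5% of all tested genes in either direction. Casp4 and Casp1, which encode inflammatory caspases, were lower there by a log2FC of -2.83 (SE 0.32) and -1.3 (SE 0.16), with edgeR adjusted p of 3.78e-06 and 9.3e-06. Txnip and P2rx7 were the most increased, with log2FC of 1.82 (SE 0.31, edgeR adjusted p = 0.000225) and 1.48 (SE 0.26, edgeR adjusted p = 0.0003).

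A list of 20 genes of receptor signalling was counted in the same way. After the single dose, 11 rose and 4 fell (median log2FC 0.86), beside the same shares of all genes. Tnfaip3 and Nfkbiz, an inhibitor and a cofactor of NF-κB, rose most, by a log2FC of 7.02 (SE 0.2, edgeR adjusted p = 2.26e-13) and 5.15 (SE 0.37, edgeR adjusted p = 7.79e-09). The largest decreases were those of Tab1 (log2FC -1.73, SE 0.3, edgeR adjusted p = 0.000137) and Peli2 (-1.25, SE 0.33, edgeR adjusted p = 0.00487). In LPS-tolerant against LPS-stimulated BMDMs, 3 were higher and 8 lower (median -0.2), beside the same 34.5%, with Tnfaip3 at -3.15 (SE 0.16, edgeR adjusted p = 4.56e-10) and Nfkbiz at -2.11 (SE 0.31, edgeR adjusted p = 6.36e-05). The highest increase was that of Irak3, which encodes an inhibitory kinase of the pathway (log2FC 1.6, SE 0.18, edgeR adjusted p = 3.27e-06), followed by Tab1 at 0.84 (SE 0.3, edgeR adjusted p = 0.0396).

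The same lists were counted after 24 h of priming. Against unstimulated BMDMs, 3 of the 5 tested family genes rose and 1 fell, a count set in part by the filter as above. Il36g, listed as Il1f9, had 101, 33 and 57 raw counts against 0, 2 and 3, a ratio of 44.5 (exact 95% counting interval 18.8 to 139). Il36a was at least 4.66-fold higher by its mean, although one LPS-primed sample, at 2 counts, lay below the floor of 3. Sigirr fell with a log2FC of -2.12 (SE 0.63, edgeR adjusted p = 0.0193). In this comparison 25.2% of all tested genes passed (median -0.02). Of the 20 processing genes, 5 rose and 3 fell (median 0.15), with Mefv at 4.56 (SE 0.48), Nlrp3 at 2.13 (SE 0.17), Nlrp1b, another sensor gene, at -1.3 (SE 0.19) and Txnip at -0.99 (SE 0.3). Of the 20 signalling genes, 6 rose and 0 fell (median 0.33), led by Irak3 at 3.37 (SE 0.19) and Tnfaip3 at 2.69 (SE 0.16).

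In LPS-primed against LPS-stimulated BMDMs, Il33 was lower (log2FC -4.47, SE 1.01, edgeR adjusted p = 0.00219) and no other family gene passed. Beside 44.6% of all tested genes, 8 of the 20 processing genes were higher and 4 lower (median 0.34), among them P2rx7 at 2.09 (SE 0.26), Txnip at 1.4 (SE 0.31), Nlrp3 at -2.12 (SE 0.17) and Casp4 at -1.62 (SE 0.3). Of the signalling genes, 3 were higher and 8 lower (median -0.61), with Irak3 at 1.81 (SE 0.18), Tab1 at 1.52 (SE 0.3), Tnfaip3 at -4.32 (SE 0.17) and Nfkbiz at -2.63 (SE 0.32).

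In LPS-tolerant against LPS-primed BMDMs, 5 of the 20 processing genes passed, 2 upward and 3 downward (median -0.22), beside 6.31% of all tested genes. Nlrp3 rose by a log2FC of 1.45 (SE 0.17, edgeR adjusted p = 8.55e-05) and Capn2, a calpain gene, by 0.91 (SE 0.13, edgeR adjusted p = 0.00037). Casp4 and Nlrp1b fell, with log2FC of -1.21 (SE 0.31) and -1.13 (SE 0.19). Of the signalling genes, 3 rose and 0 fell (median 0.24), with Tnfaip3 at 1.17 (SE 0.15) and Irak2 at 0.97 (SE 0.17). No other family gene passed. For carboplatin, no gene of the 3 lists passed in either state in the edgeR fit.

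The genes with the most similar profiles were found by Pearson's r of log2 CPM over the 18 samples, among 8792 other genes, as a description, since the samples share the treatment and the replicate number. For Il1a these were Cxcl1 (0.994), Cxcl2 (0.984) and Alas1 (0.982), of which the first encode chemokines for neutrophils. For Il1b they were Nos2 (0.971), Cd14 (0.965) and Alas1 (0.963), and for Il1rn Zc3h12a (0.978), Pofut2 (0.974) and Ehd1 (0.973). Il1a and Il1b had an r of 0.959 with each other, and Il1rn had 0.967 with Il1a and 0.894 with Il1b. Against Il18, the r of Il1a, Il1b and Il1rn was -0.412, -0.253 and -0.434.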

How the data were processed

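RNA-Seq was performed on 18 BMDM samples in 6 groups of 3 biological replicates. According to the study's methods and the submitters' processing notes, read pairs were aligned to GRCm39 with HISAT2 and counted per gene with HTSeq, and the authors deposited raw counts per gene symbol for each sample. Versions, gene annotation and the strand option are not given in the sources used here, and the library kit is named as stranded in the methods only. HTSeq rows that name no gene held 41.52 to 46.89% of each file and were left out.

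Counts were fitted with edgeR 4.0.16 (R 4.3.3) in a single quasi-likelihood model of 6 group means, with TMM scaling and filterByExpr (minimum count 10, minimum total count 15), and p-values were adjusted by Benjamini-Hochberg over 11305 genes. The SE of a log2FC was its size divided by the root of F. DESeq2 1.42.0, limma-voom (limma 3.58.1), other scalings and filters, fits of the compared groups, a replicate block and leaving out each sample were alternatives. The fit was tested on simulated data with known changes. Deviations of same-numbered samples correlated at a mean r of 0.35 over 45 pairs, against -0.17 for different numbers. Within the comparisons made, every pair exceeded 0.1 except replicate 3 of LPS-primed and LPS-stimulated BMDMs (0.063). A blocked value is given beside a result where the block changed the call. For replicate 2 of LPS-stimulated against unstimulated BMDMs, r was 0.237 with the same number and 0.261 with another, so the pairing is less certain there.

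The members, gene lists and tests were chosen with earlier results of these data known. Members were all described, and from each gene list the genes with the largest passing changes in either direction, at most 2 each, were named in every LPS comparison. Genes most like a member were sought for Il1a, Il1b and Il1rn, and not for Il1r2, which the filter removed. Levels between genes were compared per kb of exon from GENCODE vM39. Promoters came from RefSeq (GRCm38.p6) and were placed on GRCm39 where the sequence matched once. The number of reads limits genes with few counts, and intervals cover counting error only.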

Additional observations from a re-analysis of the deposited data

Results flagged for a closer look

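The change of 4 members with the second dose of LPS differed from their change with the first, by the test of the difference itself in the edgeR fit. The difference on the log2 scale was -9.22 for Il1a, -10.51 for Il1b, -6.14 for Il1rn and -6.27 for Il1r1, with edgeR adjusted p of 2.93e-05, 4.29e-05, 1.27e-05 and 2.86e-06. Of all tested genes, 23.8% passed this test, 13.3% downward. Il1a and Il1r1, few in unstimulated BMDMs, passed the filter through the groups given LPS. With at least 10 counts in every sample compared, 2 of 6 tested members passed, beside 2368 of 9493 genes. For Il1b, Il1a and Il1rn, the second dose followed on levels already raised by priming, at 15361 ± 11488, 1112 ± 771 and 1866 ± 908 normalized counts (n = 3). For Il1r1 the first response was an increase from 3.31 ± 2.41 to 118 ± 63.3, whereas the means before and after the second dose were 242 ± 26.3 and 112 ± 51.0.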

How the results depend on the processing

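Of 72 log2FC of members, 22 passed the test, of which 17 passed under every alternative that could test them and none turned sign. Over all alternatives 17 calls were lost and 27 gained. Requiring at least 10 counts in every sample left 2 members past the test in LPS-stimulated against unstimulated BMDMs, 3 in LPS-primed against unstimulated and 2 in the difference between LPS responses, since this filter removed Il1a and Il1r1. In LPS-tolerant against LPS-primed BMDMs, the count was 1 by DESeq2, 1 by limma-voom, 3 with the replicate block, and 3 with the replicate block and no expression filter. The last fit gave 7 in LPS-stimulated against unstimulated BMDMs. Leaving out 1 sample gave 2 to 6 members in LPS-tolerant against LPS-stimulated and 0 to 1 in LPS-tolerant against LPS-primed BMDMs. The fit without replicate 2 of every group and the block without a filter were chosen after seeing the data. For LPS-primed against LPS-stimulated BMDMs, replicate 3 did not pair by number (r 0.063), whereas replicates 1 and 2 did (0.302 and 0.201). In this comparison, Il1b had a log2FC of -2.61 with the replicate block (adjusted p = 0.000393) and -1.92 with only these groups (0.035). It had -2.48 by limma-voom (0.0381) and -1.55 without replicate 2 of every group (0.0255). There, Il1r1 had 1.02 (0.056) with only these groups. For LPS-tolerant against LPS-stimulated BMDMs, Il1a (-1.39, 0.0916), Il1rn (-1.32, 0.201) and Il18rap (-1.42, 0.0639) missed the threshold without replicate 2 of every group, whereas Il1b passed (-1.85, 0.0153), as it did by DESeq2 (0.0413), limma-voom (0.0168) and without the filter (0.0332). With only these groups, Il1a had an adjusted p of 0.0516. Beyond the calls named here and in the results, the block changed no call of a member. The causes were not tested.

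None of the log2FC that turned sign had passed the test. With library size alone, Il18bp was at -0.22 in LPS-stimulated against unstimulated BMDMs, Il1rap at 0.05 in LPS-primed against LPS-stimulated, and Il18bp at 0.03 for carboplatin in LPS-tolerant BMDMs. In the last comparison, Il18bp was also at 0.03 by limma-voom, 0.06 with the replicate block, 0.05 with the block and no filter, and 0.37 without replicate 2 of every group. That setting also turned Il18 in LPS-primed against unstimulated (0.11), Il1rap in LPS-primed against LPS-stimulated (0.12), Il1r1 in LPS-tolerant against LPS-stimulated (0.53) and Il18rap in LPS-tolerant against LPS-primed BMDMs (0.05). In the difference of carboplatin effects, limma-voom gave -0.06 for Il18 and -0.01 for Il1rap, and the block without a filter -0.01 for Il18.

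Leaving out 1 sample in turn, the log2FC in LPS-stimulated against unstimulated BMDMs ran from -0.14 to 0.44 for Il18bp, and in LPS-primed against unstimulated from -0.42 to 0.23 for Il18. In LPS-primed against LPS-stimulated it ran from -0.03 to 0.61 for Il18 and -0.3 to 0.19 for Il1rap. In LPS-tolerant against LPS-stimulated it ran from -0.54 to 0.29 for Il1r1 and -0.42 to 0.07 for Il1rap. In LPS-tolerant against LPS-primed it ran from -1.48 to 0.19 for Il1b, -0.36 to 0.02 for Il1rap and -0.7 to 0.22 for Il18rap. For carboplatin in LPS-primed BMDMs it ran from -0.07 to 0.66 for Il1rn, -0.4 to 0.25 for Il18 and -0.4 to 0.18 for Il18rap. In LPS-tolerant BMDMs it ran from -0.53 to 1.45 for Il1b, -0.97 to 0.12 for Il1rn, -0.39 to 0.26 for Il1r1 and -0.24 to 0.46 for Il18bp. The difference of carboplatin effects ran from -1.57 to 0.18 for Il1a, -1.43 to 0.55 for Il1b, -0.36 to 0.28 for Il18, -0.62 to 0.02 for Il1r1 and -0.2 to 0.26 for Il1rap.

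Over all genes, LPS-tolerant against LPS-primed BMDMs had 713 calls, 2034 with the block, 1909 with the block and no filter, 1127 by DESeq2 454 with only these groups and 330 to 506 leaving out 1 sample. Carboplatin had 42 calls in the primed and 48 in the tolerant state, 200 in each with the block, 274 and 270 with the block and no filter, 121 and 152 by DESeq2, 19 and 6 with only these groups, 24 by limma-voom in the tolerant state, and 24 to 36 and 18 to 36 leaving out 1 sample. Without replicate 2 of every group, edgeR had 0 calls in both states, 152 in LPS-tolerant against LPS-primed, 3838 in LPS-stimulated against unstimulated (5789 with all samples), 1680 in LPS-primed against unstimulated, 3266 and 2443 in LPS-primed and LPS-tolerant against LPS-stimulated BMDMs (5043 and 3900), and 1254 in the difference between LPS responses. LPS-primed against unstimulated BMDMs had 2847 and 4367 with the block, and the difference between LPS responses 2691 and 4091. Library size alone moved the median log2FC of all genes in LPS-primed against LPS-stimulated BMDMs from 0.03 to 0.13 and in the difference between LPS responses from 0.06 to 0.3, with 1862 higher and 1078 lower in place of 1190 and 1501. In LPS-tolerant against LPS-primed BMDMs it gave 296 higher and 476 lower in place of 407 and 306. Depth limited Il1r2 and Il1rl1, whose counts were near the floor of 3 per library in most groups.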
